A study of Homo sapiens with 1 sample.

Results

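A set of 10 genes whose loss causes primary microcephaly were followed in single-cell RNA-seq data of human neural progenitor cells (NPCs). They were ASPM, WDR62, CDK5RAP2, CENPJ, STIL, CEP135, CEP152, KNL1, MCPH1 and PHC1, chosen by name as 10 of the 33538 genes listed. The library, hHAR123, came from H9, an established human embryonic stem cell line of genotype WT, which carries the human form of the enhancer HAR123. Dual inhibition with Dorsomorphin and SB431542, embryoid bodies and replating drove the cells towards NPCs, and according to the study's methods independent WT clones were pooled and collected before rosettes were selected. No other library is analysed here, so no group had a replicate and no test was made. All intervals are 95% intervals that cover counting error only, and they are narrower than the spread between cultures would be.

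In primary microcephaly the brain is small and its layers are largely preserved, and the known genes act mostly in the division of neural progenitors. Centrioles are copied once per cell cycle, in S phase, and the paired centrosomes then form the poles of the mitotic spindle. Proteins encoded by CEP152, STIL, CENPJ and CEP135 build the new centriole. CDK5RAP2 gathers microtubule-nucleating material around it, and ASPM and WDR62 act at the spindle pole. KNL1 is the kinetochore scaffold on which the checkpoint kinase BUB1 docks, MCPH1 restrains condensin II and takes part in the DNA damage response, and PHC1 is a subunit of the Polycomb repressive complex PRC1.

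The library held 14726 barcodes. The study's limits of 2000 to 10000 genes and a mitochondrial share below 0.1 left 13925 cells (94.6%), with a median of 17900 unique molecular identifiers (UMIs) per cell. Levels are summed UMIs of a gene per 1000000 UMIs of all genes in the same cells (CPM). Each cell was thinned to 5000 UMIs and placed in a cell cycle state by lists that hold none of the 10 genes. They were 10 TOP2A-led genes of G2 and mitosis, 71 histone genes taken to mark S phase and 13 MCM-led genes of G1/S. The histone genes were chosen by symbol alone. A cell was high for a list when it reached a UMI count that no more than 25% of cells reach (15, 6 and 8 UMIs, respectively), and low when it was high for none. A cell high for several lists took the list where its rank was highest. Histone-high cells had a median of 12 TOP2A-led UMIs, against 2 in low cells, so that state is not cleanly before G2. There were 6915 low, 2174 MCM-high, 2351 histone-high and 2457 TOP2A-high cells, with median depths of 15109, 17668, 21527 and 24216 UMIs. The states are ranges of a score, not types: 4.52% of cells lay at or 1 UMI under the TOP2A-led limit, 4.73% at the histone limit and 11.01% at the MCM-led limit. Genes in none of the lists followed the states. CCNE2, the G1/S cyclin, was at 29.1 CPM in MCM-high and 7.05 CPM in low cells, and the mitotic kinase gene PLK1 was at 108 CPM in TOP2A-high and 13.1 CPM in low cells. 

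The 10 genes were all detected, with 8154 UMIs (WDR62) to 52498 UMIs (ASPM) in the kept cells. Their genes span from 27.6 kb (PHC1) to 242 kb (MCPH1) in GENCODE release 44 on GRCh38. Reads within introns are counted by default in this version of the counting software, so levels are compared between cells and not between genes. In GRCh38 coordinates, ASPM lies on the minus strand of chromosome 1 (197084121 to 197146694) and has 28 exons in its Ensembl canonical transcript. STIL lies on the same chromosome and strand (47250139 to 47314892), WDR62 on the plus strand of chromosome 19 (36054649 to 36105108) and KNL1 on the plus strand of chromosome 15 (40594020 to 40664342). CEP152 is also on chromosome 15, on the minus strand (48712928 to 48811146). CDK5RAP2 lies on chromosome 9 (minus, 120388875 to 120580170), CENPJ on chromosome 13 (minus, 24882279 to 24922889), CEP135 on chromosome 4 (plus, 55948871 to 56033361) and PHC1 on chromosome 12 (plus, 8913896 to 8941467).

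Because several of these genes moved together across the states, the DNA before their RefSeq starts is shown for 3 that did and for PHC1, whose level was nearly the same in all states. Each line is the 250 bases before the RefSeq transcription start (GRCh38.p14), 5′ to 3′ on the gene's own strand. RefSeq and GENCODE starts can differ, and the stretch for STIL, nearly all of that for WDR62 and the end of that for ASPM lie within the GENCODE spans of these genes. The coordinates are chr1:197146670-197146919 (minus) for ASPM, chr1:47314148-47314397 (minus) for STIL, chr19:36054647-36054896 (plus) for WDR62 and chr12:8913593-8913842 (plus) for PHC1. Capitals mark CCAAT, the motif TTTGAA with its variant TTTAAA, which resemble the cell cycle homology region, and the E2F-type motif TTGGCGC with the variant TTCCCGC, the variant TTGCCGC and the variant TTCGCGC, on either strand.
ASPM: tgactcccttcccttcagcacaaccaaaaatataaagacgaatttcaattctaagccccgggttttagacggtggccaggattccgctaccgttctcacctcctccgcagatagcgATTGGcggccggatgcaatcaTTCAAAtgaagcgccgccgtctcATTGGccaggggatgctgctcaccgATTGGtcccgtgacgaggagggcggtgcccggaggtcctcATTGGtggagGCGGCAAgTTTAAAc
STIL: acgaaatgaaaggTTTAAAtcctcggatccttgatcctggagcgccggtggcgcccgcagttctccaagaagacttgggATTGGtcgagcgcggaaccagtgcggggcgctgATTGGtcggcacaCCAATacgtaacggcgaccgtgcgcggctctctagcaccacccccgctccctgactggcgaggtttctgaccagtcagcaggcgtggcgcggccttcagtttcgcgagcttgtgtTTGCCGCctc
WDR62: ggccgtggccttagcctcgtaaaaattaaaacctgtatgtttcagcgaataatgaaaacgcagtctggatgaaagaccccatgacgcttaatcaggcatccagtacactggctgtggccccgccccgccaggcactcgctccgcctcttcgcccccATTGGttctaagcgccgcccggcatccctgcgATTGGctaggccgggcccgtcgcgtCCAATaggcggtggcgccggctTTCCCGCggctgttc
PHC1: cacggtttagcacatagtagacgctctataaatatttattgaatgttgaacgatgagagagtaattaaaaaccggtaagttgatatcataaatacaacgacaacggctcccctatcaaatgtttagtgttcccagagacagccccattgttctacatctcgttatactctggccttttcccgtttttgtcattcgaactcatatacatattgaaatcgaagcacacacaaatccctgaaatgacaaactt

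The RefSeq table matched 8 of the 10 genes, all but MCPH1 and KNL1. Over 300 bases (250 before to 50 after the start), CCAAT was found in 4 of the 8 promoters, with 4 copies in ASPM, 3 each in WDR62 and STIL and 2 in CEP152. It was in 34.6% of all 35116 promoters of that length, and 4 of 8 is near that share. An E2F-type motif was in the same 4 promoters, against 12.97% of all promoters, and one of the motifs that resemble the cell cycle homology region was in 6 of the 8, against 24.0%. The 4 genes with CCAAT had ratios of histone-high over low cells of 2.57 to 3.24, and CDK5RAP2, CENPJ, CEP135 and PHC1 had ratios of 1.07 to 2.10. In TOP2A-high over low cells these groups had ratios of 2.35 to 9.17 and 1.10 to 2.16. In MCM-high over low cells the ranges overlapped, with CENPJ at 2.02 and ASPM at 1.72. The motif resembling the cell cycle homology region did not follow the split in histone-high cells. PHC1 (1.07) held it, 36 bases after the start and so outside the stretch shown. CDK5RAP2 (1.92) and CEP135 (1.82) held it too, and WDR62 (2.57) did not. CENPJ (2.10) held none of the motifs. In TOP2A-high over low cells, the 6 genes with the motif resembling the cell cycle homology region had ratios of 1.10 to 9.17. CENPJ and WDR62, without it, had 2.16 and 2.35. Matches of letters are descriptions and not shown to be sites, and a link between motifs and levels was not tested.

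The 10 genes fell into 3 patterns by state. ASPM and KNL1 were highest in TOP2A-high cells, the 6 centriole and centrosome genes had ratios of TOP2A-high over histone-high cells of 0.81 (CEP152), 0.91 (WDR62) and 0.98 to 1.05 (CEP135, STIL, CENPJ and CDK5RAP2), and MCPH1 and PHC1 hardly differed between states. In TOP2A-high over low cells, 8 of 10 were at least 1.5-fold higher, as were 3.78% of the 13586 genes measured with at least 500 UMIs, and the median ratio was 2.26 for the 10 genes and 1.01 for all. In histone-high over low cells it was again 8 of 10 (5.09% of all genes), with a median of 2.34. In MCM-high over low cells it was 6 of 10 (6.42% of all genes), with a median of 1.78.

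**Figure D1:**
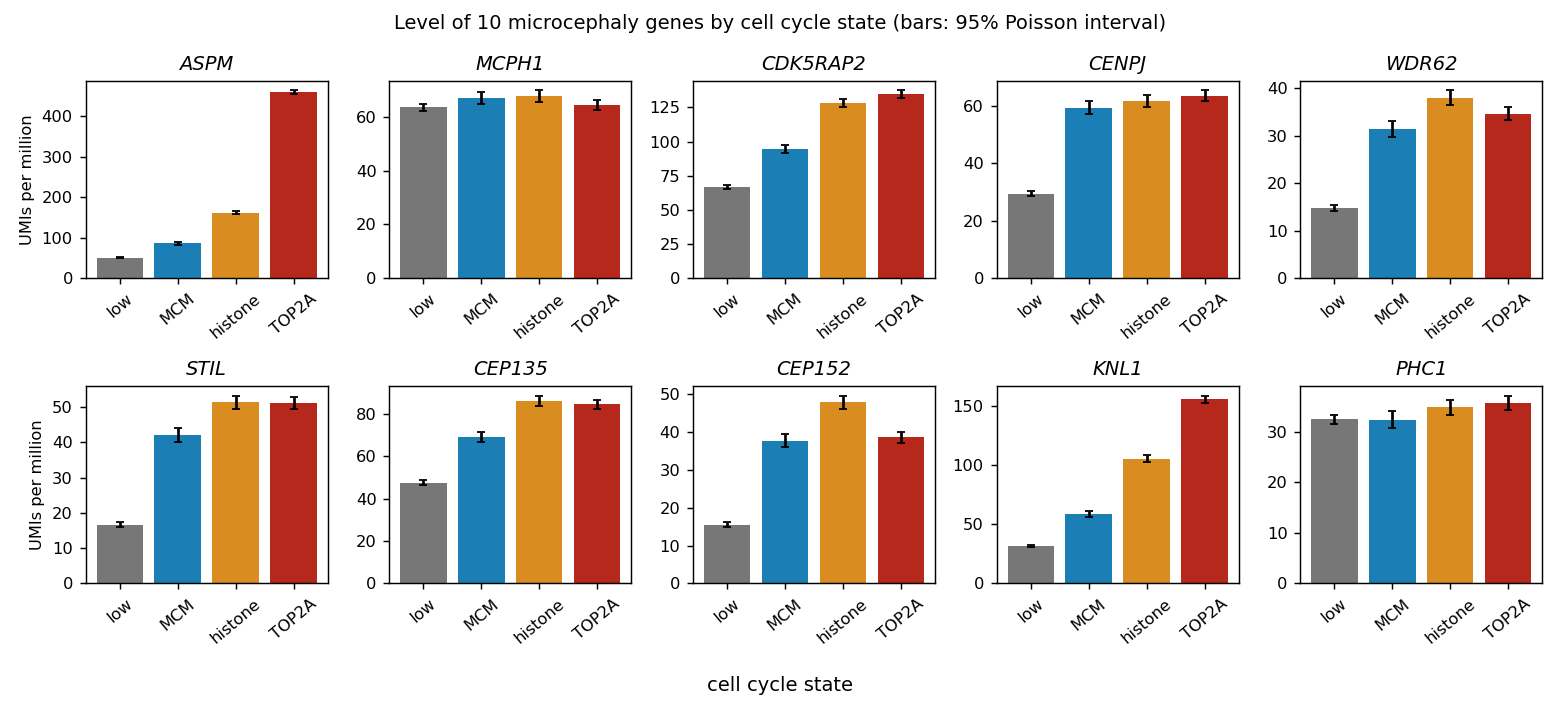
Level of each of the 10 genes (vertical axes, CPM, from 0) in low, MCM-high, histone-high and TOP2A-high cells, with 95% Poisson intervals. ASPM goes from 49.9 in low to 458 CPM in TOP2A-high cells, CEP152 is highest in histone-high cells at 47.8 CPM, and MCPH1 stays between 63.6 and 67.7 CPM.

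ASPM had the largest difference. Its level was 49.9 CPM (48.8 to 51.1) in low, 85.7 (83.0 to 88.5) in MCM-high, 162 (159 to 165) in histone-high and 458 (453 to 463) in TOP2A-high cells. No intervals overlapped, and each state was above the one before. The TOP2A-high level was 9.17 times the low level (8.94 to 9.42), the third highest of the 13586 genes that remain once the state lists are left out, and 2.83 times the histone-high level (2.76 to 2.89). It ran from 6.39, with states set by TOP2A, MCM2 to MCM7 and HIST1 genes alone, to 30.7, with low taken as cells at or under the median of all 3 lists. The median cell had 0, 1, 3 and 12 ASPM UMIs in the 4 states, in the same order. After thinning to equal depth, 14.4%, 28.2%, 52.8% and 84.6% of cells had an ASPM UMI. In the 106 neuron-marker cells described later, in which cycling genes should be scarce, the share was 4.76%, at a median depth of 13414 UMIs before thinning.

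KNL1 followed the same order at a smaller range. Its level was 31.8 CPM (30.8 to 32.7) in low, 58.6 in MCM-high, 106 (103 to 108) in histone-high and 156 (153 to 159) in TOP2A-high cells. The TOP2A-high level was 4.92 times the low (4.75 to 5.09) and 1.48 times the histone-high level (1.43 to 1.52), and with low taken as at or under the medians it was 12.001 times. ASPM was the 1 of 10 that was at least 1.5-fold higher in TOP2A-high than in histone-high cells, as were 1.66% of genes. KNL1 was just under that limit, and the other genes had ratios of 0.81 to 1.05.

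The genes of new centriole assembly were already above their low-state levels in MCM-high cells. The ratios of MCM-high over low cells were 2.53 (STIL), 2.43 (CEP152), 2.02 (CENPJ) and 1.45 (CEP135, under the 1.5-fold limit). STIL, which binds the kinase PLK4 and helps to start the new centriole, was at 16.6 CPM (15.9 to 17.3) in low cells, 42.0 in MCM-high, 51.4 (49.6 to 53.2) in histone-high and 51.1 (49.4 to 52.8) in TOP2A-high cells. The last 2 did not differ beyond counting error, with a ratio of 0.99 (0.95 to 1.04). The pooled TOP2A-high level joins unlike groups among the clusters described later. STIL was at 14.9 CPM in TOP2A-high cells of cluster 6 and 57.3 in those of cluster 3. CEP152, which recruits PLK4 to the parent centriole, was at 15.5 CPM in low, 37.7 in MCM-high, 47.8 (46.1 to 49.6) in histone-high and 38.6 (37.2 to 40.1) in TOP2A-high cells. Its ratio of TOP2A-high over histone-high cells, 0.81 (0.77 to 0.85), was the lowest of the 10. In TOP2A-high cells CEP152 was at 25.4 CPM in cluster 6 and 42.2 in cluster 3.

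CENPJ, which controls centriole length, was at 29.3 CPM in low cells and stood at 59.1 (56.9 to 61.4) in MCM-high, 61.6 (59.7 to 63.7) in histone-high and 63.4 (61.5 to 65.3) in TOP2A-high cells. Neighbouring intervals overlapped among these 3. CEP135, a protein of the centriole's inner scaffold, was at 47.6, 69.1, 86.4 (84.0 to 88.8) and 84.6 CPM (82.5 to 86.8) in the 4 states, and the last 2 overlapped. In TOP2A-high over low cells the ratios were 3.08 for STIL, 2.49 for CEP152, 2.16 for CENPJ and 1.78 for CEP135. With low taken as at or under the medians, STIL had 5.33, CEP152 3.81 and WDR62 4.22.

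WDR62 and CDK5RAP2 had ratios of TOP2A-high over low cells within the range of the centriole genes. WDR62 was at 14.7 CPM (14.1 to 15.4) in low, 31.4 in MCM-high, 37.9 (36.4 to 39.5) in histone-high and 34.6 (33.3 to 36.1) in TOP2A-high cells. ASPM and WDR62, although both act at the spindle pole, thus had different orders in the pooled cells: WDR62 was 0.91 times as high in TOP2A-high as in histone-high cells (0.86 to 0.97). The pool mixes clusters described later. WDR62 was at 12.9 CPM in the 466 TOP2A-high cells of cluster 6. In TOP2A-high and histone-high cells it was at 36.0 and 38.0 CPM in cluster 2 and 36.8 and 44.5 in cluster 3. In cluster 4 it was at 39.7 and 37.6, and in cluster 5 at 38.0 and 39.9. CDK5RAP2 was at 66.9 CPM in low, 94.4 in MCM-high, 129 (126 to 131) in histone-high and 135 (132 to 137) in TOP2A-high cells, a ratio of 2.01 between the ends (1.96 to 2.07).

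MCPH1 was at 63.6 CPM (62.3 to 64.9) in low, 66.9 in MCM-high, 67.7 (65.6 to 69.8) in histone-high and 64.5 (62.6 to 66.4) in TOP2A-high cells. TOP2A-high over low cells gave 1.01 (0.98 to 1.05). PHC1 was at 32.4 CPM in low and in MCM-high cells, 34.8 in histone-high and 35.7 (34.3 to 37.1) in TOP2A-high cells, a ratio of 1.10 (1.05 to 1.16). Counted as UMIs per cell without regard to depth, MCPH1 was 1.42 times and PHC1 1.54 times as high in TOP2A-high as in low cells, whose median depths differed (24216 and 15109 UMIs).

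In single cells thinned to 5000 UMIs, the mean number of the 10 genes with a UMI was 1.39 in low, 2.27 in MCM-high, 3.01 in histone-high and 3.37 in TOP2A-high cells. The share of low cells with none of the 10 was 24.2%, and of TOP2A-high cells 1.55%. ASPM gave 13.6% of the summed UMIs of the 10 genes in low cells and 40.8% in TOP2A-high cells.

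Cells were also binned by their count of TOP2A-led UMIs. That count defines the TOP2A-high state, so the bins are not separate evidence. ASPM was at 12.5 CPM in the 1990 cells with 0 such UMIs, 27.5 with 1 to 4, 92.2 with 5 to 9, 182 with 10 to 19, 373 with 20 to 29 and 672 in the 958 cells with 30 or more. KNL1 ran from 10.6 to 202 CPM over the same bins. STIL ran from 10.5 to 58.5 CPM and was already at 35.6 in the bin of 5 to 9. CEP152, which was lower in TOP2A-high than in histone-high cells, rose through the bins from 11.6 to 43.6 CPM. WDR62 went from 8.74 to 36.4 CPM in the bin of 20 to 29 and was at 36.0 in the last. MCPH1 was at 62.1 CPM in the first bin and 61.4 in the last, and PHC1 at 31.8 and 36.4.

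**Figure D2:**
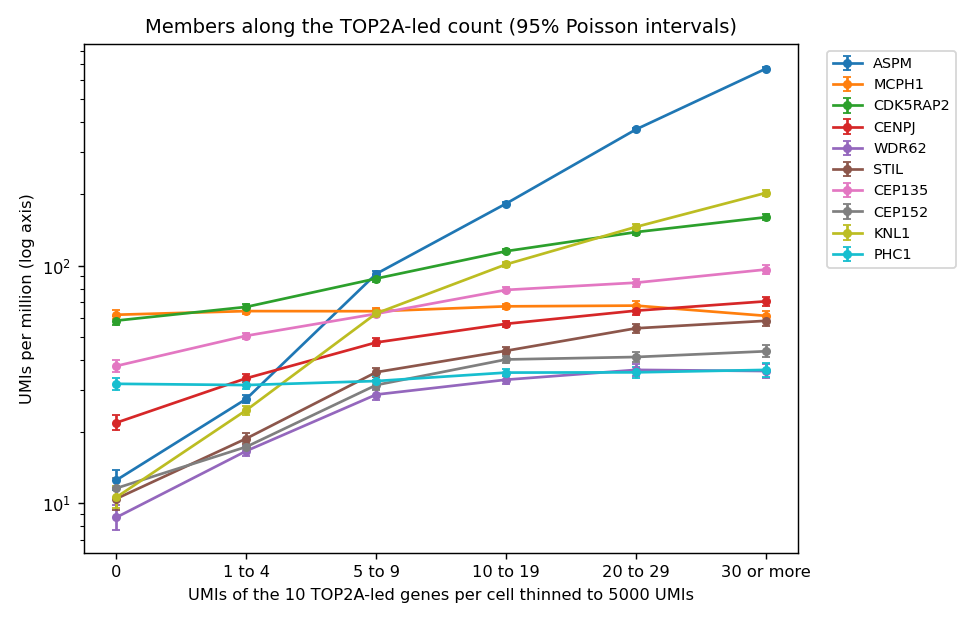
Level of the 10 genes (vertical log axis, CPM, with 95% Poisson intervals) against the number of UMIs of the 10 TOP2A-led genes in a cell thinned to 5000 UMIs (horizontal axis, 6 bins). ASPM goes from 12.5 CPM in the first bin to 672 in the last, and MCPH1 from 62.1 to 61.4.

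Within the TOP2A-high state, cells were split at the median of 8 further genes of G2 and mitosis, at 9 UMIs. They were CCNB1, CCNB2, CDC20, PLK1, AURKA, CENPA, PTTG1 and HMMR. ASPM was at 563 CPM (555 to 572) in the 1183 cells above it and 378 (372 to 384) in the 1274 at or below it, a ratio of 1.49 (1.46 to 1.52). KNL1 had a ratio of 1.26 (1.21 to 1.31). The other 8 genes had ratios of 0.94 to 1.09. None of the 10 reached 1.5-fold in either direction, as 0.315% of genes did higher and 3.23% did lower.

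The clusters gave another view of the states. Clustering was done without the 10 genes among its variable genes. Cluster 3 (1677 cells, led by PIF1, APOLD1 and ASPM) and cluster 2 (2044 cells, led by histone genes) held the highest level of every gene but MCPH1, and cluster 1 held 4602 cells, 3620 of them low. Cluster 6 (1195 cells) was led in part by PTTG1, CCNB2 and CDC20, genes of G2 and mitosis also used for the split above. It held 646 low and 466 TOP2A-high cells. Cluster 3 held 1486 TOP2A-high cells, so the 2 clusters also differ in state. Compared with cluster 3, 8 of 10 genes were at least 1.5-fold lower in cluster 6, as were 7.4% of all genes. STIL was at 10.6 CPM in cluster 6 and 57.5 in cluster 3, 5.44-fold lower, with a ratio of 0.18 (0.16 to 0.21). WDR62 was at 10.4 against 37.1 CPM, a ratio of 0.28 (0.24 to 0.33), and ASPM at 192 against 564 CPM, a ratio of 0.34 (0.33 to 0.35). MCPH1 (0.86) and PHC1 (0.89) differed by less than 1.5-fold. Among TOP2A-high cells alone, ASPM was at 293 CPM in cluster 6 and 594 in cluster 3. There STIL was at 14.9 and 57.3 CPM, WDR62 at 12.9 and 36.8, CENPJ at 47.6 and 69.7, and CDK5RAP2 at 110 and 154. Median depth was 14889 UMIs in cluster 6 and 25064 in cluster 3.

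In cluster 6 over cluster 1, ASPM and KNL1 had the highest ratios of the 10. ASPM was 7.35 times as high in cluster 6 (6.94 to 7.78) and KNL1 3.66 times (3.40 to 3.94), the 2 of 10 that were at least 1.5-fold higher, as were 4.57% of genes. STIL was the 1 that was at least 1.5-fold lower, with a ratio of 0.61 (0.53 to 0.71), as were 7.82% of genes, and WDR62 was at 0.81 (0.69 to 0.94). Cluster 9 (116 cells) was led by genes such as PINCR, MIR34AHG and PTCHD4, which p53 is known to induce. It had 14.2 CPM of ASPM (26 UMIs, 9.27 to 20.8) and 4.91 of STIL (9 UMIs, 2.25 to 9.33). Of its cells, 110 were in the low state. Among low cells ASPM was at 12.6 CPM in cluster 9 and 19.1 in cluster 1, and STIL at 4.57 and 12.3. A link to p53 was not tested.

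**Figure D3:**
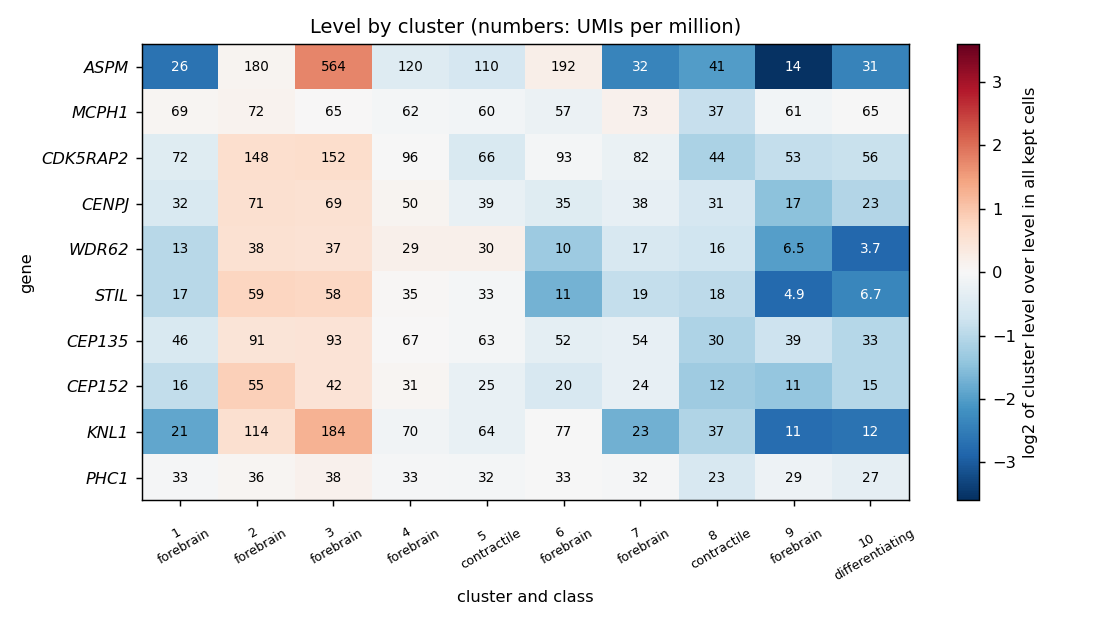
Level of the 10 genes (rows) in the 10 clusters (columns, with their class), printed as CPM and coloured by the log2 ratio to the level in all kept cells. ASPM reads 564 CPM in cluster 3 and 26.2 in cluster 1, and STIL 10.6 in cluster 6, between 59.1 in cluster 2 and 4.91 in cluster 9.

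Clusters were put in 3 classes by marker lists. Forebrain NPC-like cells (12302 cells, 7 clusters) expressed SIX3 (331 CPM), LHX2 (162) and SOX2 (412), with the forebrain markers DLX2, SIX6 and RAX near absent at 0.56 to 4.29 CPM. LHX2 (248 CPM), FEZF2 (112) and EMX2 (112) were higher in the differentiating class, so they do not mark this class alone. Contractile NPC-like cells (1517 cells, clusters 5 and 8) expressed TAGLN at 4501 CPM against 524 CPM in forebrain NPC-like cells, and held 8 and 5 of the 10 contractile markers at 3-fold or more over the other cells. No progenitor marker was required for this class. Compared with forebrain NPC-like cells it had less SOX2 (113 CPM), HES5 (9.69 against 180), FABP7 (48.0 against 483), SOX1 (6.96 against 59.7) and PAX6 (20.8 against 54.3), and more NES (661 against 246) and VIM (4406 against 917). The epithelial markers KRT8 (287 against 77.5) and KRT18 (409 against 82.0) were higher too, but EPCAM, KRT19 and CDH1 were not. COL1A2 was at 71.0 against 8.23 CPM, with the other crest and mesenchyme markers at 8.76 CPM or less in this class. Differentiating-progenitor-like cells (106 cells, cluster 10) expressed STMN2 (2372 CPM), DCX (949) and all 10 neuronal markers. Of these, GAP43 (160 CPM) was nearly as high in contractile NPC-like cells (148), so it does not mark this class alone. Of the 5 pluripotent markers, POU5F1, NANOG and TDGF1 were at 0 to 0.61 CPM in the 3 classes, whereas LIN28A was at 236, 190 and 107 CPM and DPPA4 at 125, 65.5 and 65.6 CPM, in the order forebrain, contractile and differentiating. Cluster 4 (1545 cells), named forebrain NPC-like by this rule, also had 2259 CPM of TAGLN.

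Over all states, contractile NPC-like cells had less ASPM and CDK5RAP2. ASPM was at 108 CPM (106 to 110) against 186 (184 to 188) in forebrain NPC-like cells, a ratio of 0.58 (0.57 to 0.59), and CDK5RAP2 at 65.6 against 108 CPM, a ratio of 0.61 (0.59 to 0.63). These 2 of 10 were at least 1.5-fold lower, as were 34.7% of all genes, so the share is under the background, and the median ratio was 0.81 for all genes and 0.84 for the 10. None was 1.5-fold higher (11.8% of genes), and WDR62 had the highest ratio, 1.17 (1.11 to 1.22). Contractile NPC-like cells had a median of 48125 UMIs against 17084, and 14.9% of them were TOP2A-high against 18.2%. Counted as UMIs per cell, the direction turned for both genes, to 1.45 for ASPM and 1.53 for CDK5RAP2, and 9 of 10 genes were at least 1.5-fold higher, as were 72.2% of all genes on that scale.

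The class difference also depended on the state. Among low cells, ASPM was higher in contractile NPC-like cells, at 72.9 against 39.7 CPM (ratio 1.84, 1.75 to 1.93). KNL1 (1.85), STIL (1.89) and WDR62 (2.13) were higher too, so 4 of 10 were at least 1.5-fold higher, as were 14.2% of genes. In these low cells the mean count of TOP2A-led UMIs was 4.95 in contractile and 2.90 in forebrain NPC-like cells. Among cells at or under the median of all 3 lists, where these means were 1.43 and 1.30, WDR62 (1.79) and KNL1 (1.52) were at least 1.5-fold higher, 2 of 10 (13.7% of genes), and ASPM had a ratio of 1.28 and CDK5RAP2 of 0.63.

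Among TOP2A-high cells ASPM and KNL1 were lower in the contractile class, and WDR62 was on the higher side, as among low cells. CDK5RAP2 was lower too. Its ratio was 0.78 among low cells and 0.63 among cells at or under the median of all 3 lists. The median ratio of all genes was 0.86 in each of these groups and 0.85 in TOP2A-high cells. ASPM was at 243 CPM in the 224 contractile and 510 in the 2230 forebrain NPC-like cells, a ratio of 0.48 (0.46 to 0.49). CDK5RAP2 (0.59) and KNL1 (0.64) were also at least 1.5-fold lower, 3 of 10, a share near that of all genes (29.3%), and STIL (0.96) and WDR62 (1.11) were not. The mean count of TOP2A-led UMIs was 19.9 in these contractile and 28.8 in these forebrain NPC-like cells. Its part in the difference was not tested.

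Within forebrain NPC-like cells alone, 8 of 10 genes were at least 1.5-fold higher in TOP2A-high than in low cells (4.26% of all genes), and ASPM had a ratio of 12.8 (12.4 to 13.3), KNL1 of 6.68 and STIL of 3.95. Within contractile NPC-like cells, 6 of 10 were (2.05% of all genes), with ratios of 3.33 (3.17 to 3.50) for ASPM, 2.32 for KNL1 and 2.01 for STIL, and CENPJ (1.49) and CEP135 (1.24) under the limit. MCPH1 and PHC1 had ratios of 0.99 and 1.12 in the first class and 1.05 and 1.01 in the second.

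**Figure D4:**
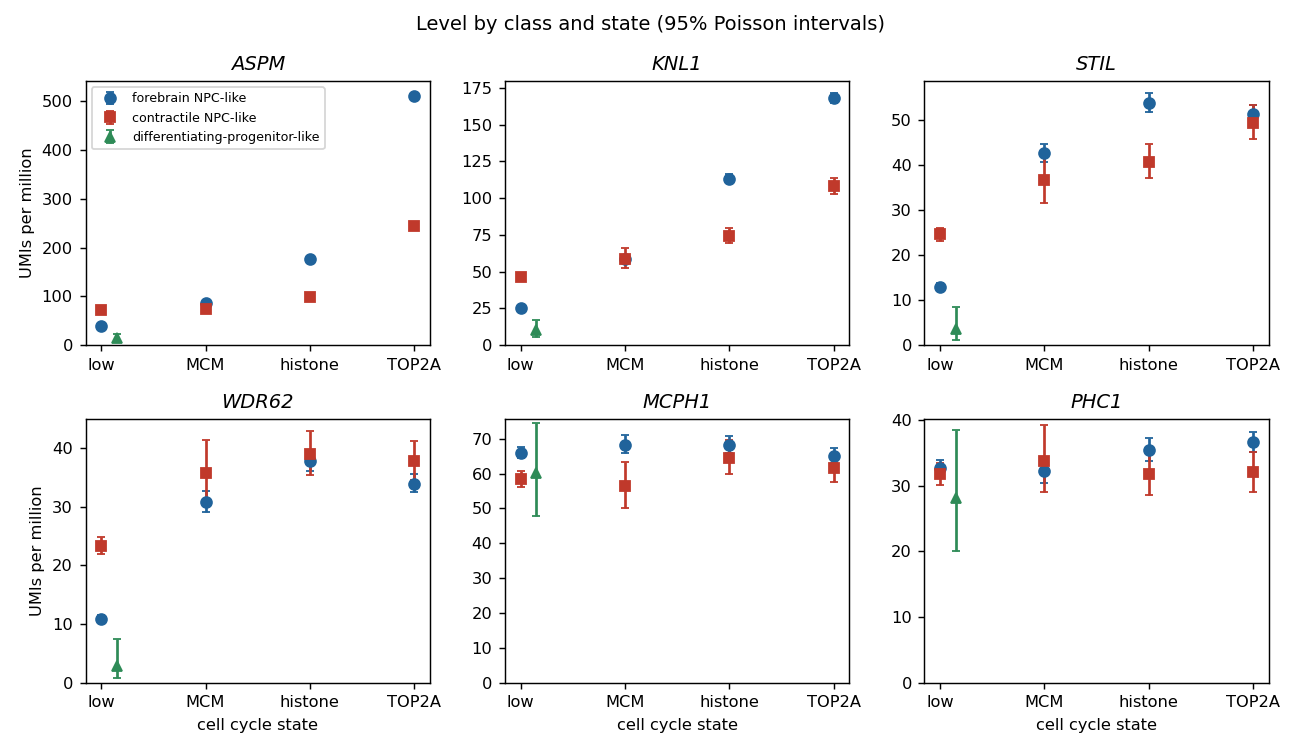
Level of 6 of the genes (vertical axes, CPM, from 0) by cell cycle state in forebrain NPC-like (blue circles), contractile NPC-like (red squares) and, in the low state, differentiating-progenitor-like cells (green triangles), with 95% Poisson intervals. In TOP2A-high cells ASPM is at 510 CPM in the forebrain and 243 in the contractile class, and in low cells at 39.7 and 72.9.

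The differentiating class was compared within low cells, 94 cells against 5903 forebrain NPC-like ones. WDR62 was at 2.89 CPM (4 UMIs, 0.79 to 7.41) against 10.9, a ratio of 0.26 (0.072 to 0.68), and STIL at 3.62 CPM (5 UMIs) against 13.04, a ratio of 0.28 (0.090 to 0.65). ASPM had a ratio of 0.38 (0.24 to 0.59), KNL1 of 0.40 (0.22 to 0.68) and CEP135 of 0.56 (0.38 to 0.78). These 5 of 10 were at least 1.5-fold lower, as were 25.6% of genes, and none was higher (12.7% of genes). CDK5RAP2 had a ratio of 0.71 (0.56 to 0.90). The intervals of CENPJ (0.46 to 1.02), CEP152 (0.53 to 1.43), MCPH1 (0.72 to 1.13) and PHC1 (0.61 to 1.18) included 1, so no difference was detectable with these few cells. The mean count of TOP2A-led UMIs was 0.69 in these differentiating and 2.90 in the forebrain cells.

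Lists of related genes, all with at least 500 UMIs, were read in the same way for TOP2A-high over low cells, where 3.78% of all genes were at least 1.5-fold higher. Of 30 other microcephaly genes, 15 were (median ratio 1.46). CENPE, a kinetochore motor, had a ratio of 7.29 and KIF14, a motor of cytokinesis, of 7.21, and CDK6 (0.77) and PDCD6IP (0.90) the lowest. Of 20 centriole duplication genes 11 were higher (median 1.61), led by PLK4 (3.09) and POC1A (2.42), with SPICE1 (1.01) and TUBGCP2 (1.12) at the other end. Of 15 kinetochore and checkpoint genes, the neighbours of KNL1, 10 were higher (median 2.92): NDC80 had a ratio of 9.001 and TTK of 8.33, and MAD1L1 (1.15) and MIS12 (1.24) the lowest.

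Condensin compacts chromosomes for mitosis. Of the 8 genes of both condensin complexes 7 were at least 1.5-fold higher, against 3.78% of all genes (median 2.81), from NCAPH (5.37) and NCAPG (5.23) to NCAPD3 (1.67) and, below the limit, NCAPH2 (1.43). NCAPH and NCAPG belong to condensin I. The subunits particular to condensin II, which MCPH1 restrains, had the lower ratios of 2.29 (NCAPG2), 1.67 (NCAPD3) and 1.43 (NCAPH2). PRC1 genes had ratios near that of PHC1. Of 19 other PRC1 genes, 0 were higher (median 1.08), a share near that of all genes, with CBX2 at 1.30 and BMI1 at 1.26, and PCGF5 (0.87) and RING1 (0.85) lowest. Of 10 spindle pole partners of ASPM 6 were higher (median 1.52), led by CIT (5.13) and TACC3 (4.81). Several genes, such as PLK4, SASS6, CIT, BUB1, NCAPH and NCAPD3, stand in more than 1 list.

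**Figure D5:**
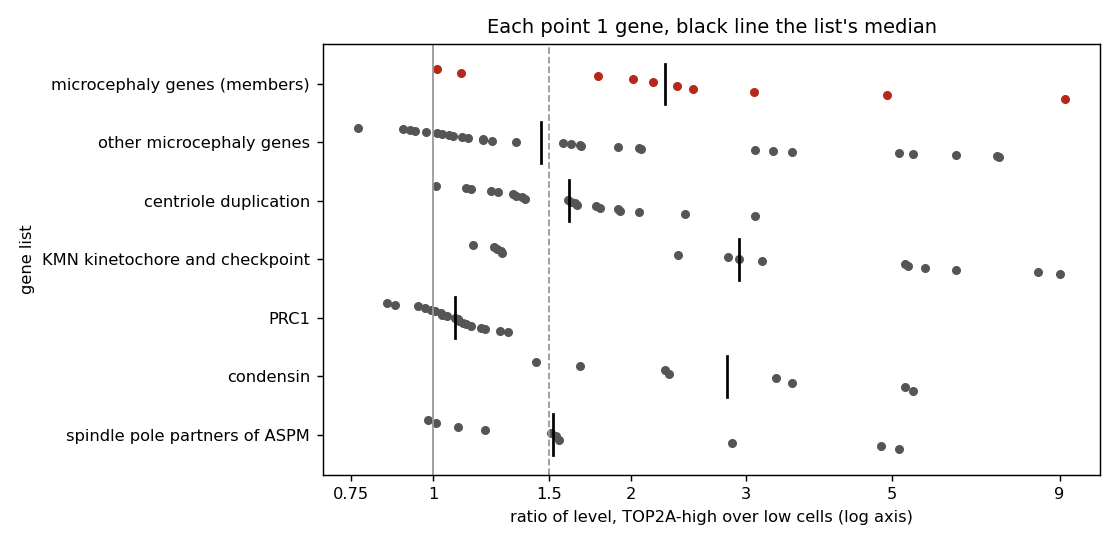
Ratio of TOP2A-high over low cells (horizontal log axis) for each gene of 7 lists (vertical axis), with lines at 1 and 1.5. The members run from 1.01 (MCPH1) to 9.17 (ASPM), and the PRC1 genes from 0.85 to 1.30.

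The genes with the most similar patterns were taken from Pearson's r of log2(CPM + 1) over 25 bins of cluster by state, among 11237 genes with at least 2000 UMIs. The bins come from 1 library, so r is a description. ASPM was closest to ECT2 (0.98), CENPF (0.98, itself a gene of the TOP2A-led list) and KNL1 (0.97). KNL1 was closest to SMC4 (0.98), MKI67 (0.97, also of that list) and ECT2 (0.97). WDR62 was closest to STIL (0.96), NET1 and POLQ, and STIL to NET1, POLQ and TICRR (0.98 each). CENPJ was closest to CEP152, and CEP152 to CENPJ (0.96). CEP135 was closest to NCAPD3, NDC1 and ALG8 (0.94 to 0.95), CDK5RAP2 to TBC1D31 (0.97), NUP35 and CTCF, MCPH1 to DMXL1 (0.94), CDKAL1 and DHRS7B, and PHC1 to NUP98 (0.83), TTC31 and ATL2. Over these bins ASPM varied 47.3-fold, from 12.6 CPM in low cells of cluster 9 to 594 CPM in TOP2A-high cells of cluster 3. The low end rested on 110 cells, and low cells of cluster 1 were at 19.1 CPM. PHC1 varied 1.98-fold. ASPM and WDR62 had an r of 0.68, and ASPM and MCPH1 of 0.28.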

How the data were processed

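The authors deposited raw counts of UMIs per gene and barcode from a Chromium 3' HT v3.1 library, made with Cell Ranger 7.0.1 at default settings on GRCh38 (Seurat 4.4.0 is also listed in their processing notes). The annotation version is not given in the sources used here. By default that software counts intronic reads and drops barcodes it does not call as cells.

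The counts were filtered by the study's limits on genes and mitochondrial share. The 28 kept cells under 5000 UMIs got no state. The doublet caller Scrublet marked 1 barcode, too few to trust, and all cells stayed in. One alternative left out the 1178 barcodes that scored highest. Cells were clustered with scanpy 1.11.5 (10000 counts per cell, log, 2000 variable genes without the members, 30 components, 20 neighbours, Leiden resolution 0.5). A cluster was contractile or differentiating when at least 3 of that list's markers had 20 CPM and 3-fold the level of other cells, and otherwise forebrain NPC-like with at least 3 forebrain and 3 progenitor markers at 50 CPM.

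Levels have exact Poisson intervals, ratios exact conditional binomial intervals and shares Clopper-Pearson intervals. Background shares require 500 UMIs in the cells compared. They leave out the genes of the state lists, except where contractile and forebrain NPC-like cells are compared over all states. For the split of TOP2A-high cells the genes that set the split are left out too. With 1 library, cells are not replicates, so no test was made. The calculation of ratios and intervals was run on simulated Poisson counts of TOP2A-high over low cells. These hold no spread between cells or cultures, so only the calculation was checked.

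Named were the 10 members, the 2 highest and 2 lowest ratios of each list, the 3 genes most like each member, and genes that check the states. Some values that this rule names are not reported here. CCNE2 and PLK1, and the motifs, clusters and markers printed, serve as context. The members and lists were chosen with earlier results of these data known. The cluster comparisons, the bins of TOP2A-led counts and the class comparisons within a state were added after seeing the data.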

Additional observations from a re-analysis of the deposited data

How the results depend on the processing

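The counts of genes at least 1.5-fold higher by state stayed within 1.5 times their values under every alternative run: another share of cells called high, another meaning of low, shorter lists, another thinning depth, another level, forebrain NPC-like cells alone, high Scrublet scores removed, a 2-fold limit and all barcodes. For TOP2A-high over low cells they were 7 at a 2-fold limit (1.74% of all genes), 9 by UMIs per cell (36.1%) and 8 otherwise, and for histone-high 6 at a 2-fold limit (1.99%) and 8 otherwise. For MCM-high they ran from 4, at a 2-fold limit (1.97%) and with the upper sixth called high (6.12%), to 8 with the stricter meaning of low (8.65%). The ASPM ratio of TOP2A-high over low cells ran from 6.39 to 30.7 and that of KNL1 from 3.92 to 12.001. MCPH1 ran from 0.98 to 1.42 and PHC1 from 1.09 to 1.54.

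The class comparison depended on the scale. For contractile over forebrain NPC-like cells, the count of lower genes was 0 by UMIs per cell (5.53% of all genes), 0 at a 2-fold limit (19.4%) and 0 in low cells only (31.1%), and the count of higher genes was 9 by UMIs per cell, where 72.2% of all genes were, and 4 in low cells only. Ratios turned to 1.45 for ASPM and 1.53 for CDK5RAP2 by UMIs per cell. Those of KNL1, CEP152, CENPJ, MCPH1, CEP135, STIL and PHC1 turned too on that scale, to between 1.92 and 2.35. In low cells only, ratios turned to 1.84 for ASPM, 1.85 for KNL1 and 1.89 for STIL. CENPJ (1.18), CEP135 (1.25) and CEP152 (1.25) turned by less, and CDK5RAP2 (0.78), MCPH1 (0.89) and PHC1 (0.97) did not turn. The cause was not tested. UMIs per cell carries the depth of the cells by construction. Low cells only and the removal of cluster 4, which left 2 lower (36.1% of all genes) and 0 higher (12.9%), were chosen after seeing the data. Of 380 alternatives of single ratios, 166 moved by less than their interval, 211 moved further and 3 were counted as reversed. The 3 were class ratios of ASPM and CDK5RAP2, the genes past 1.5-fold between the classes. Class ratios of other genes also crossed 1 without being counted as reversed, such as that of KNL1, which ran from 0.73 to 1.92.

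No paired analysis was possible because there is 1 library, and for the same reason no replicate was left out. The small number of cells limited the differentiating class, where WDR62 rested on 4 UMIs in 94 low cells.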
